A study of Mus musculus with 60 samples.

Results

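The genes described here are 7 parts of the corticosteroid and CRH response machinery of the brain. They are Nr3c1, which encodes the glucocorticoid receptor, Nr3c2, which encodes the mineralocorticoid receptor, Hsd11b1, Crhr1, Crhbp, Fkbp4 and Ncoa1. They were picked by name from a table of TPM, a transcript level scaled by gene length and library total. All 7 were found among its 47643 gene symbols, and all 7 were among the 15608 genes tested, those with at least 1 TPM in at least 4 libraries.

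RNA was sequenced from the hippocampus of female mice, given as 2 months old in the labels, after injection of melanoma cells described as cachectic (CAC), of melanoma cells described as non-cachectic (NCAC), or of no tumour cells (a mock injection, Con). Tissue came from 2, 4, 6 and 8 wk after injection, and the 60 libraries comprise 4, 5, 5 and 7 from CAC at those times, 5, 5, 4 and 5 from NCAC, and 5 at every time from Con. In cachexia, muscle and fat are lost as a cancer progresses, and no measure of it was used here. The labels disagree on the strain of all groups, naming C57BL6/J for the samples and NCI Ath/nude for the series, and an extraction note names a tumour line, LLC, that matches no group. The labels call the samples biological replicates and give each library a number of its own, without stating that each number is a separate mouse. The p-values therefore reflect only the variation among the libraries at hand. Time after injection and age cannot be told apart.

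Corticosterone, the main glucocorticoid of mice, enters the brain and binds a pair of intracellular receptors that act as transcription factors. The mineralocorticoid receptor binds it tightly and is largely occupied at rest, whereas the glucocorticoid receptor binds it less tightly and is engaged as levels rise with stress or at the daily peak. The hippocampus is rich in both, and takes part in the negative feedback that restrains corticotropin-releasing hormone (CRH) and thereby the adrenal output of corticosterone. CRH also acts within the hippocampus, through its receptor Crhr1, and Crhbp encodes a secreted protein that binds CRH and limits its access to that receptor.

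Short stretches of promoter from RefSeq (build GRCm38) are shown for some genes whose windows hold the letters of a known response element. Of the 7 genes, 6 were matched to these promoters, all but Nr3c1. The first set holds GAANNTTC, the core of the heat shock element, in capitals, because co-chaperones were among the genes most like Fkbp4 across libraries. Nr3c2 is shown only because its window holds the same letters. The stretches lie at chr6:128438789-128438818 on the minus strand and at chr8:76902108-76902257 on the plus strand, and in both the match begins 151 bases before the RefSeq start. The Fkbp4 stretch is within an annotated exon of GENCODE M21, the other in no annotated exon.
Fkbp4: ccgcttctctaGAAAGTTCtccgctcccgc
Nr3c2: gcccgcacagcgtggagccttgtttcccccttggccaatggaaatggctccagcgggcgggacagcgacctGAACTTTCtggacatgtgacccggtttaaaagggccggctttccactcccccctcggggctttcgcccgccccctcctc
The second set holds TGACG, the core of the cAMP response element, here on the opposite strand, so that the capitals read CGTCA. It is shown for Crhbp (chr13:95444878-95444907, minus strand, within an annotated exon) and for Cort (chr4:149126764-149126913, minus strand, in no annotated exon), an interneuron neuropeptide gene that was among the 3 genes most like Crhbp across libraries.
Crhbp: gagctggaccctCGTCAttgccacgcattt
Cort: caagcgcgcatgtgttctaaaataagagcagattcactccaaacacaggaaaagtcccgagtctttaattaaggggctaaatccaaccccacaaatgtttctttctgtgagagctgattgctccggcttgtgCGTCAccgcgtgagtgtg
The last stretch holds the palindromic glucocorticoid response element, in capitals, at a start of Sgk1, a kinase gene induced by glucocorticoids (chr10:21993640-21993789, plus strand, 189 bases before this start, 1 of 6 starts listed).
Sgk1: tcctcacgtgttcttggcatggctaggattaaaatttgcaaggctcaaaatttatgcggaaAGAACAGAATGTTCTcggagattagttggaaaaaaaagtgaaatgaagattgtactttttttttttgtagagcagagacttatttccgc
Both strands of 32851 promoter windows, from 250 bases before the start to 50 after it, were searched. GAANNTTC stood in 7.86% of them and in 2 of the 6 promoters matched for the 7 genes, those of Fkbp4 and Nr3c2. TGACG stood in 20.8% of all windows and in 2 of the 6, those of Crhbp and Fkbp4. The full cAMP response element TGACGTCA stood in 1.79% and in 0 of the 6. The glucocorticoid element stood in 3 of the 32851 windows (0.00913%) and in 0 of the 6, and its letters in the Sgk1 window overlap a GAANNTTC match. A match is a run of letters, and no binding was measured.

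Depth was 32388197 to 42047145 reads per library, as recovered from the steps in the TPM values. All 92 genes of the 13 marker lists were in the table, and 0 of them were at 0 in every library. The summed levels of the CA1, CA2-CA3 and dentate granule lists were 477 to 744, 249 to 423 and 156 to 366 TPM over the 60 libraries. Markers of tissue near the hippocampus differed between libraries: the striatum list summed to 1114 TPM in CAC at 2 wk replicate 1, 1388 and 261 TPM in CAC at 4 wk replicates 1 and 4, 170.5 TPM in NCAC at 4 wk replicate 5 and 1390 TPM in Con at 4 wk replicate 2, against a median of 109 TPM in CAC, 96.9 TPM in both NCAC and Con. A further 5 libraries were rich in red cell genes. The trend of a library's values with gene length also differed between groups, with a median slope in CAC, for log2 level per doubling of length, of 0.10 at 2 wk and -0.04 at 8 wk, and in Con of -0.01 at 2 wk and -0.11 at 8 wk. Differences are given in log2(TPM + 0.5) with their SE, and a gene is called where the limma p, adjusted over all genes tested, was under 0.05. Voom is the same kind of fit on the recovered reads. In bulk tissue, fewer cells of a type and less RNA per cell cannot be told apart.

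Among the receptors, the glucocorticoid receptor gene Nr3c1 fell over time in the CAC group. It was 31.1, 37.2, 40.4, 42.5, 40.9, 34.4 and 34.96 TPM in the 7 CAC libraries at 8 wk, against 61.3, 55.4, 55.5 and 54.1 TPM in the 4 at 2 wk. All CAC libraries at 8 wk were below all at 2 wk. The means were 37.3 ± 4.13 TPM at 8 wk (SD, n = 7) and 56.6 ± 3.23 TPM at 2 wk (SD, n = 4), with 46.3 ± 4.25 at 4 wk and 43.8 ± 7.02 at 6 wk (SD, n = 5 each) between them. The difference of 8 wk from 2 wk was -0.60 ± 0.09 (log2 with SE, 0.66-fold, limma adjusted p = 1.64e-05). In this comparison 3 of the 7 genes were called, all lower at 8 wk, where 31% of all tested genes were called, and the median difference was -0.27 for the 7 genes and -0.06 for all genes tested.

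In the groups without cachectic cells, Nr3c1 was not called between these times. NCAC libraries held 43.2, 43.5, 44.2, 42.9 and 48.7 TPM at 8 wk and 45.9, 54.8, 46.4, 49.6 and 47.6 TPM at 2 wk, a difference of -0.13 ± 0.09 (adjusted p = 0.338). Con libraries held 44.6, 44.6, 39.7, 38.1 and 36.6 TPM at 8 wk and 53.5, 53.6, 49.3, 43.04 and 43.2 TPM at 2 wk, a difference of -0.25 ± 0.09 (adjusted p = 0.0735, and 0.0366 without Con at 2 wk replicate 4). The 8 wk and 2 wk libraries overlapped in both groups. Of the 7 genes, 0 were called in NCAC between these times by limma, with 2 at an unadjusted p under 0.05 and 0 by voom (14% of all genes called), and 0 in Con, with 3 unadjusted and 0 by voom (9.67%). The CAC difference from Con at 8 wk was lower than that at 2 wk by 0.35 ± 0.13 for Nr3c1, with an unadjusted limma p of 0.0104 and an adjusted p of 0.34. This direct test therefore did not pass, and it called 0 of the 7 genes, 1 at an unadjusted p under 0.05 and 0 by voom (0.00641% of all genes called).

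Several measures moved with the fall of Nr3c1. The gene length recovered from its TPM values is large (7425 bases, longer than 85.4% of tested genes). The length trend of CAC libraries was lower at 8 wk than at 2 wk. With trends on GC content and length removed, the CAC difference was -0.41 ± 0.08 and still called, while those of NCAC and Con became 0.02 and -0.08. In that fit 3 genes were again called lower in CAC, but Nr3c2 and Hsd11b1 were lost, and Crhr1 (-0.40 ± 0.15, adjusted p = 0.0491) and Fkbp4 (-0.21 ± 0.07, adjusted p = 0.0255) were called beside Nr3c1. The 6 oligodendrocyte markers summed to 1171 to 2180 TPM in CAC at 8 wk and 2412 to 3313 TPM at 2 wk. Of these 6 of 6 were called lower, where 31% of all genes were called, and none was at 0. In Con they summed to 1301 to 2116 TPM at 8 wk and 1913 to 3037 TPM at 2 wk. There 1 of 6 was called lower (9.67% of all genes), with 5 of 6 at an unadjusted limma p under 0.05. In NCAC 0 of 6 were called (14% of all genes). The 9 thalamus markers summed in CAC to 48.2 to 70.2 TPM at 8 wk and 82.3 to 412 TPM at 2 wk, with 9 of 9 called lower. In NCAC and in Con 0 of the 9 were called. Of the astrocyte markers, 4 of 6 were called lower and 1 higher in CAC, and 0 in NCAC and in Con. With the oligodendrocyte and astrocyte lists as covariates, a setting added after the values were seen, the CAC difference of Nr3c1 was -0.37 (adjusted p = 0.0287). With the striatum and thalamus lists it was -0.42 and no longer called (adjusted p = 0.0641). The part of other cells in the fall was not otherwise tested.

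**Figure D1:**
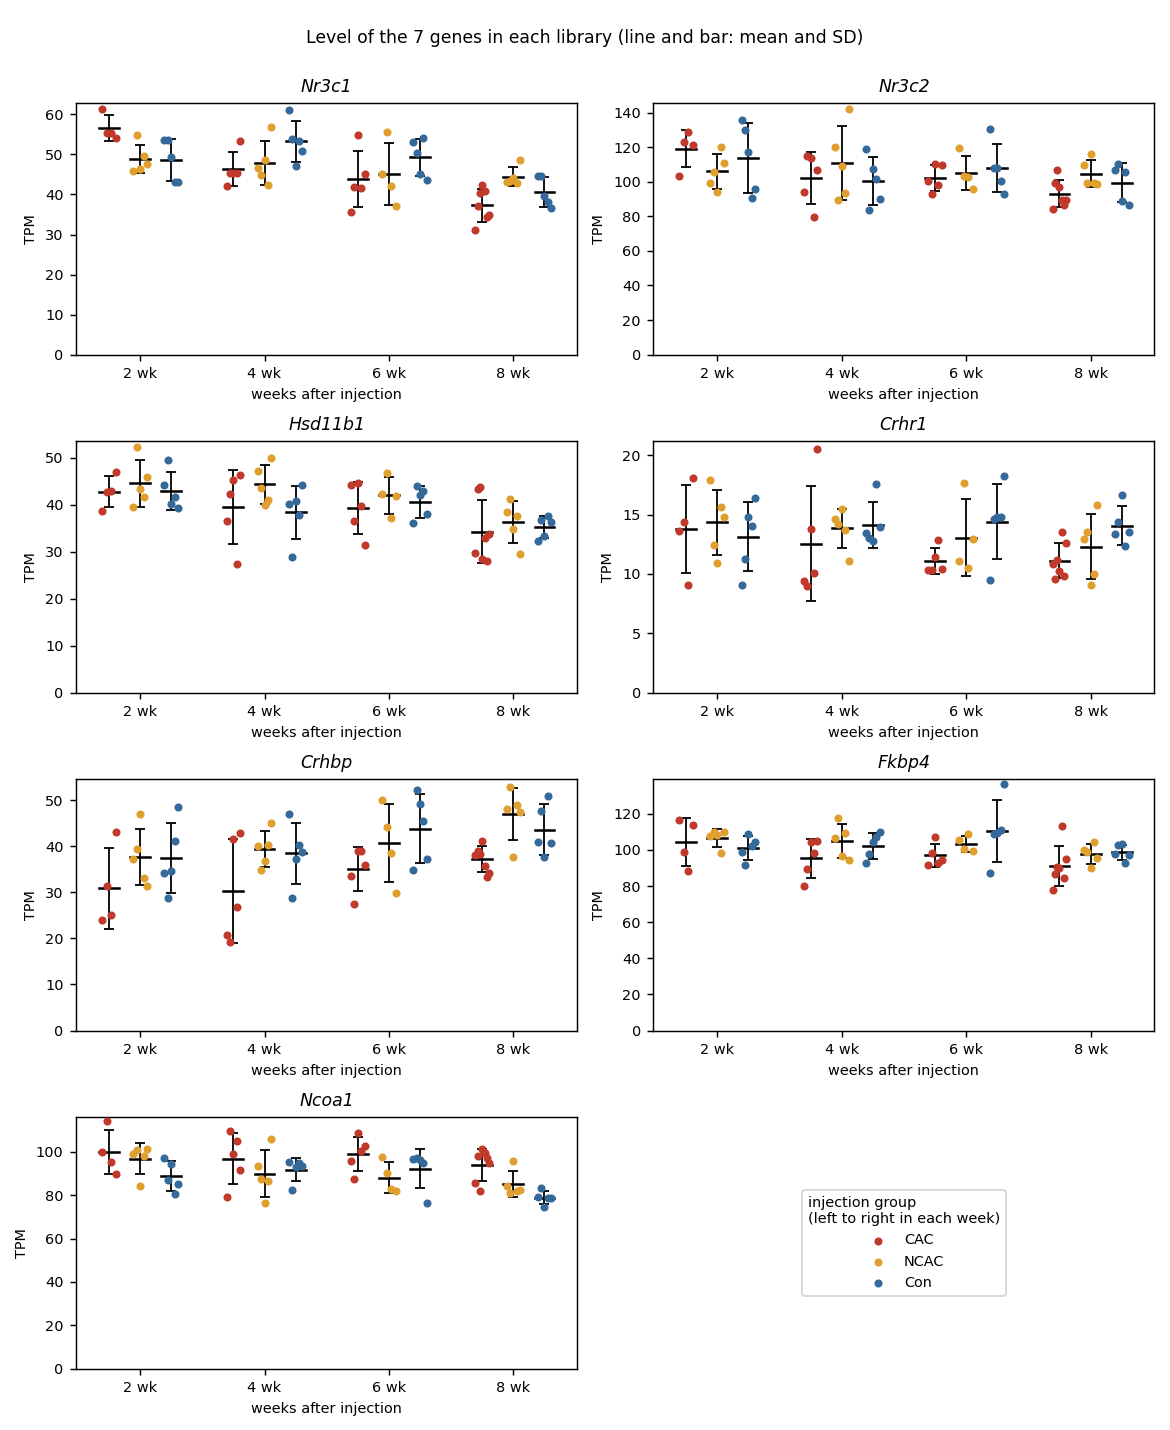
TPM of each of the 7 genes (y axis, from 0) in each of the 60 libraries by weeks after injection (x axis), with CAC, NCAC and Con side by side in each week, and with the mean and SD of each group as line and bar. Nr3c1 lies at 31.1 to 42.5 TPM in CAC at 8 wk and 54.1 to 61.3 TPM in CAC at 2 wk.

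At a single time, Nr3c1 was not called between groups. At 8 wk it was 37.3 ± 4.13 TPM in CAC (SD, n = 7), 44.5 ± 2.40 TPM in NCAC and 40.7 ± 3.71 TPM in Con (SD, n = 5 each). All 7 CAC libraries lay below all 5 NCAC libraries (31.1 to 42.5 against 42.9 to 48.7 TPM), and the difference was -0.25 ± 0.09 (adjusted p = 0.108). This comparison was sensitive to processing: the adjusted p was 0.0479 with voom, 0.0339 without the 10 striatum-rich or blood-rich libraries and 0.0166 with GC and length trends removed. Against Con the difference was -0.13 ± 0.09 (adjusted p = 0.326) with overlapping libraries, and -0.23 ± 0.07 with GC and length trends removed (adjusted p = 0.0293). At 2 wk the sign was opposite, with 56.6 ± 3.23 TPM in CAC (SD, n = 4) and 48.5 ± 5.24 TPM in Con (SD, n = 5), a difference of 0.22 ± 0.10 that was not called (adjusted p = 0.165), although the lowest CAC library (54.1 TPM) lay just above the highest Con library (53.6 TPM). Over the 4 weeks the mean difference from Con was -0.07 ± 0.05 (adjusted p = 0.291), and -0.12 with GC and length trends removed (adjusted p = 0.0222).

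The mineralocorticoid receptor gene Nr3c2 stood at 1.89 to 2.51 times the level of Nr3c1 by group mean and fell over time in CAC by less. It was 84.2, 99.4, 106.7, 96.9, 89.3, 86.7 and 89.6 TPM in CAC at 8 wk, against 103.7, 123.1, 128.8 and 121.6 TPM at 2 wk. A single 8 wk library, replicate 3, lay above the lowest 2 wk library, and the others lay below all of them. The difference was -0.35 ± 0.11 (0.78-fold, adjusted p = 0.0114), against -0.02 ± 0.11 in NCAC (adjusted p = 0.935) and -0.18 ± 0.11 in Con (adjusted p = 0.287). The recovered length of Nr3c2 is also large, at 6474 bases. The CAC difference was -0.20 ± 0.10 and no longer called with GC and length trends removed (adjusted p = 0.154). With oligodendrocyte and astrocyte lists as covariates it was not called either (-0.29, adjusted p = 0.141). Between injection groups at any time, Nr3c2 differed by at most 0.17 in size (log2), with adjusted p-values of at least 0.436.

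The balance of the receptors was taken per library as log2 of Nr3c2 over Nr3c1, a measure chosen after the values were seen. The linear ratio of Nr3c2 to Nr3c1 was 2.51 ± 0.20 in CAC at 8 wk (SD, n = 7) and 2.12 ± 0.29 at 2 wk (SD, n = 4). On the log2 scale the ratio was 0.24 higher at 8 wk (two-sided exact permutation p = 0.0485, Benjamini-Hochberg adjusted p = 0.364 over 15 comparisons). Without CAC at 2 wk replicate 1, a striatum-rich library, it was 0.14 (exact permutation p = 0.133), and over the 11 fits without a library it ranged from 0.14 to 0.29, with p from 0.019 to 0.133. In Con the linear ratio was 2.45 ± 0.20 at 8 wk and 2.33 ± 0.17 at 2 wk (SD, n = 5 each), a log2 difference of 0.07 (exact permutation p = 0.381, adjusted p = 0.635). Among the 15 comparisons, 0 had an adjusted p under 0.05, and the lowest linear group mean was 1.89 ± 0.27, in Con at 4 wk (SD, n = 5).

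Hsd11b1 encodes the enzyme that regenerates active glucocorticoid from its inert 11-keto form inside cells. It was 29.7, 43.3, 43.8, 28.4, 32.84, 28 and 33.7 TPM in CAC at 8 wk, against 38.7, 42.6, 42.8 and 46.95 TPM at 2 wk. Replicates 2 and 3 at 8 wk lay within the 2 wk range, and the other 5 lay below it. The difference was -0.34 ± 0.12 (0.79-fold, adjusted p = 0.0244). NCAC and Con moved by similar amounts without being called, by -0.29 ± 0.12 in NCAC (adjusted p = 0.0799) and -0.28 ± 0.12 in Con (adjusted p = 0.112). In Con the 5 libraries at 8 wk (32.3 to 37.6 TPM) all lay below the 5 at 2 wk (39.3 to 49.5 TPM), whereas in NCAC the times overlapped. The CAC call was lost without CAC at 2 wk replicate 2 or 5 or CAC at 8 wk replicate 1, 4 or 6 (adjusted p up to 0.0781), with median-of-ratios scaling (0.0704), with voom (0.0681), with GC and length trends removed (0.145) and with oligodendrocyte and astrocyte covariates (0.343). Between injection groups the adjusted p-values of Hsd11b1 were at least 0.208.

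Of the CRH genes, Crhbp was lower in CAC when the 4 times were averaged. It ranged from 19.3 to 43.1 TPM with a median of 35.7 TPM in the 21 CAC libraries, from 29.96 to 52.9 TPM with a median of 40.02 TPM in the 19 NCAC libraries, and from 28.8 to 52.2 TPM with a median of 40.6 TPM in the 20 Con libraries. The 6 lowest libraries of all were CAC libraries, from 2, 4 and 6 wk, and the other 15 CAC libraries lay within the range of the Con libraries. The mean of the 4 weekly differences was -0.31 ± 0.08 from Con (0.81-fold, adjusted p = 0.00686) and -0.32 ± 0.08 from NCAC (0.80-fold, adjusted p = 0.00681). Its weekly differences from Con were -0.29, -0.40, -0.31 and -0.22 at 2, 4, 6 and 8 wk, each with an SE of 0.15 to 0.17 and none called. Together with Ncoa1, it made 2 of the 7 genes called in each of these comparisons, where 19.8% of all tested genes were called against Con and 15.7% against NCAC. The median difference of the 7 genes was -0.07 from Con and -0.10 from NCAC, against 0.03 and 0.02 for all genes tested.

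Several of the low Crhbp values stood in libraries with high striatum markers, and the lowest in a library rich in red cell genes. The part of such markers in the difference was not tested beyond the fits given here. In 3 of those 6 CAC libraries the striatum list was high. Crhbp was 23.9 TPM in CAC at 2 wk replicate 1 and 20.8 and 26.8 TPM in CAC at 4 wk replicates 1 and 4. The Con library richest in striatum genes, at 4 wk replicate 2, held 28.8 TPM. The remaining striatum-rich library, NCAC at 4 wk replicate 5, held 44.97 TPM. The lowest of the 6, CAC at 4 wk replicate 2, at 19.3 TPM, was blood-rich with 92.9 TPM of striatum genes. Neither striatum-rich nor blood-rich were CAC at 2 wk replicate 4, at 25.05 TPM, and CAC at 6 wk replicate 2, at 27.5 TPM. Crhbp was also read in the other libraries that were blood-rich but not striatum-rich. It was 38.4 TPM in CAC at 8 wk replicate 3 and 44.2 TPM in NCAC at 6 wk replicate 2. In Con at 8 wk replicates 1 and 2 it was 40.9 and 47.7 TPM. Over all libraries the Pearson r of Crhbp was 0.06 with the red cell list and -0.46 with the striatum list. Without the 5 striatum-rich libraries Crhbp was 35.5 ± 6.42 TPM in CAC (SD, n = 18), 41.02 ± 6.82 TPM in NCAC (SD, n = 18) and 41.5 ± 6.53 TPM in Con (SD, n = 19). The difference from Con was then -0.26 (adjusted p = 0.03), still called, and that from NCAC was -0.24 (adjusted p = 0.0524). Without all 10 striatum-rich or blood-rich libraries the differences were -0.16 from Con (adjusted p = 0.182) and -0.14 from NCAC (adjusted p = 0.274). With CA1, CA2-CA3 and dentate lists as covariates the difference from Con was -0.19 (adjusted p = 0.167). With GC and length trends removed Crhbp was still called, at -0.30 from Con (adjusted p = 0.0103) and -0.32 from NCAC (adjusted p = 0.00967). With 1 library left out it was called in 41 of 41 fits against Con (adjusted p at most 0.0155). Against NCAC it was called in 40 of 40 (adjusted p at most 0.0152).

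**Figure D2:**
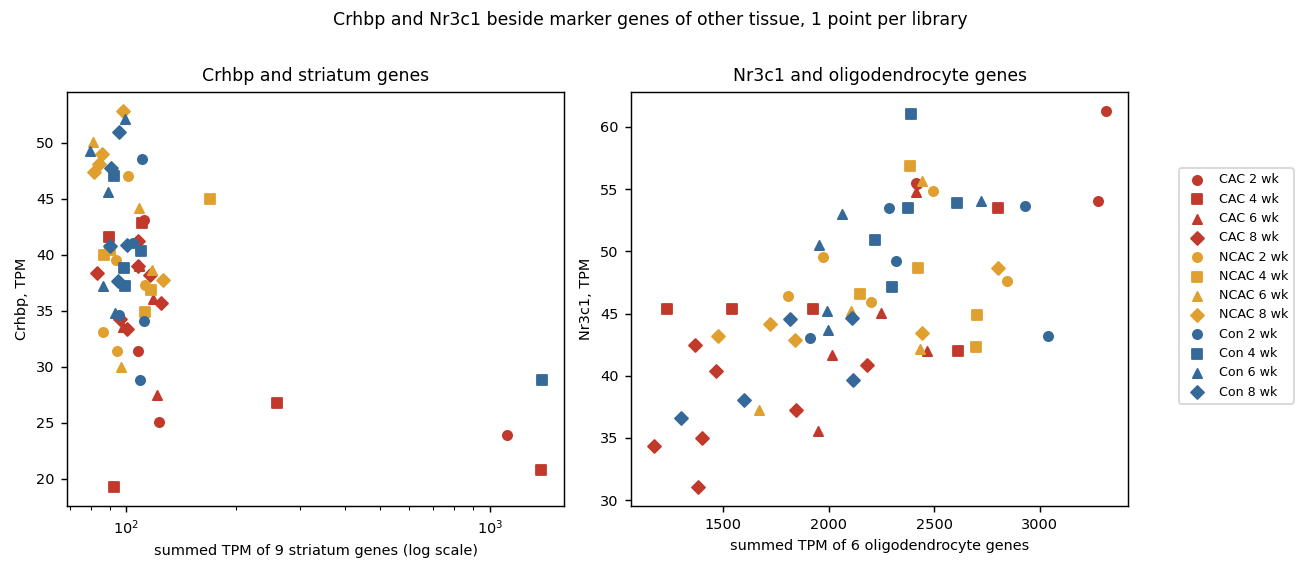
Left, Crhbp in TPM (y axis) against the summed TPM of 9 striatum genes (x axis, log scale); right, Nr3c1 in TPM (y axis) against the summed TPM of 6 oligodendrocyte genes (x axis); each point is a library, coloured by injection group and shaped by week. On the left, the 3 libraries at 1114 to 1390 TPM of striatum genes hold 20.8 to 28.8 TPM of Crhbp, and on the right the CAC libraries at 8 wk lie at 1171 to 2180 TPM of oligodendrocyte genes.

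Crhbp is made largely by inhibitory neurons in the hippocampus, and the 10 genes of the interneuron marker list are given beside it. Their median difference over 4 weeks was -0.02 from Con and 0.03 from NCAC, against 0.03 and 0.02 for all genes tested. Against Con 0 were called higher and 2 lower, where 19.8% of all genes were called, and against NCAC 1 was called higher and 2 lower, where 15.7% were. The 2 lower against Con were Sst and Npy, both peptide genes, named after their values were seen. They were picked because they were called and do not stand for the list, whose other genes were not called against Con. Sst averaged 333 ± 118.5 TPM in CAC (SD, n = 21) and 421.5 ± 138 TPM in Con (SD, n = 20), a difference of -0.45 ± 0.12 (adjusted p = 0.00957). Npy averaged 84.5 ± 16.4 TPM in CAC and 105 ± 21.9 TPM in Con, a difference of -0.31 ± 0.07 (adjusted p = 0.00241). The list summed to 666 to 1171 TPM in CAC, 715.5 to 1365 TPM in NCAC and 793 to 1251 TPM in Con, ranges that overlap, with none of its genes at 0. Neither call held throughout: Npy was lost with GC and length trends removed (-0.18, adjusted p = 0.0844), and Sst was lost without the 10 striatum-rich or blood-rich libraries (-0.30, adjusted p = 0.188).

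Crhr1, the main receptor of CRH in the hippocampus, was the lowest of the 7 at 8.95 to 20.6 TPM. At 8 wk it was 10.9, 9.55, 11.2, 10.3, 13.5, 9.85 and 12.6 TPM in CAC, against 13.4, 14.4, 16.7, 12.3 and 13.5 TPM in Con. The CAC libraries were mostly below the Con libraries, with overlap at 12.3 to 13.5 TPM. The difference was -0.33 ± 0.16 (adjusted p = 0.158, and 0.0316 in a fit of those groups alone), and the mean of 4 weeks was -0.21 ± 0.09 (adjusted p = 0.0807). The mean passed with voom (-0.26, adjusted p = 0.0434) and without any of CAC at 2 wk replicate 5, CAC at 4 wk replicate 5, Con at 2 wk replicate 1 or Con at 6 wk replicate 1 (adjusted p of 0.0191 to 0.0414).

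Of 16 genes of CRH and related peptides, 10 passed the filter, and against Con over 4 weeks 0 were called higher and 1 lower, Crhbp itself, where 19.8% of all genes were called. The median difference of the 10 was -0.14, against 0.03 for all genes tested. Crh, the hormone, stood at 0.0762 to 4.56 TPM with a median of 0.863 TPM, and its difference was -0.08 ± 0.16 (adjusted p = 0.756). The related peptide gene Ucn was at 0 in 58 of 60 libraries. Of 20 signal transducers below the receptors, 19 were in the table and tested. Of these 4 were called higher and 1 lower over 4 weeks, with a median of 0.06 against 0.03 for all genes and near the 19.8% of all genes called. Adcy9, an adenylyl cyclase, averaged 70.7 ± 7.90 TPM in CAC (SD, n = 21) and 61.3 ± 6.22 TPM in Con (SD, n = 20), a difference of 0.19 ± 0.05 (adjusted p = 0.00395). Rapgef4 and Rapgef3, cAMP-activated exchange factors, rose by 0.15 ± 0.04 for Rapgef4 (adjusted p = 0.0104, and 0.0716 with GC and length trends removed) and 0.20 ± 0.06 for Rapgef3 (adjusted p = 0.0217). The gene called lower was Adcy8, another adenylyl cyclase (-0.26 ± 0.09, adjusted p = 0.0285), named after its value was seen. At 8 wk, where 14.5% of all genes were called, 2 of the 19 were called higher and 0 lower, Rapgef4 by 0.31 ± 0.08 (adjusted p = 0.00973) and Adcy9 by 0.30 ± 0.09 (adjusted p = 0.0192), and neither was called with GC and length trends removed (adjusted p = 0.0653 for Rapgef4 and 0.0639 for Adcy9).

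Fkbp4 encodes FKBP52, a co-chaperone that helps the ligand-bound glucocorticoid receptor move into the nucleus. It ranged from 77.7 to 117 TPM with a median of 94.7 TPM in CAC, from 89.7 to 118 TPM with a median of 105 TPM in NCAC, and from 87.4 to 136 TPM with a median of 103 TPM in Con. The groups overlapped throughout. The mean of the 4 weekly differences was -0.09 ± 0.04 from Con (adjusted p = 0.108) and -0.10 ± 0.04 from NCAC (adjusted p = 0.11), neither called. The difference from Con passed, as did that from NCAC, with median-of-ratios scaling (-0.12, adjusted p = 0.0221), voom (-0.13, adjusted p = 0.018) and GC and length trends removed (-0.10, adjusted p = 0.0308), values given here for Con. It also passed without CAC at 8 wk replicate 5 or Con at 6 wk replicate 1, which at 87.4 TPM was the lowest Con library.

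Of 18 chaperones and co-chaperones of steroid receptors, 1 was called higher and 0 lower at 8 wk in CAC against Con, with a median of 0.02 against 0.05 for all genes, of which 14.5% were called. That gene was Fkbp5, which encodes FKBP51, a co-chaperone that lowers the receptor's affinity and is itself induced by glucocorticoids. It averaged 57.1 ± 12.9 TPM in CAC (SD, n = 7) and 30.7 ± 4.14 TPM in Con (SD, n = 5), a difference of 0.86 ± 0.18 (adjusted p = 0.00272). Over 4 weeks limma called 1 of the 18 higher and 1 lower, where 19.8% of all genes were called. Fkbp5 rose by 0.45 ± 0.10 (adjusted p = 0.000981). Hspa4, an HSP70 family chaperone, fell by 0.09 ± 0.03 (adjusted p = 0.0459, and 0.216 without the 10 libraries rich in striatum or red cell genes). The count depended on the method, as voom called 8 of the 18 (2559 of 15608 genes tested). Against NCAC over 4 weeks limma called 1 of the 18 (15.7% of all genes) and voom 6 (2253 of 15608).

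Ncoa1 encodes SRC-1, a coactivator that steroid receptors recruit to DNA. At 8 wk it was 85.5, 97.98, 82.1, 101.5, 99.7, 97.1 and 95.0 TPM in CAC, against 79.3, 83.4, 74.6, 78.7 and 78.8 TPM in Con. CAC replicate 3 alone lay within the Con range, and the other 6 lay above it. The difference was 0.25 ± 0.07 (1.19-fold, adjusted p = 0.0188), and Ncoa1 was the 1 gene of 7 called in this comparison, where 14.5% of all tested genes were called. The median difference of the 7 genes was -0.12, against 0.05 for all genes. Over 4 weeks Ncoa1 averaged 97.1 ± 8.90 TPM in CAC (SD, n = 21), 90.1 ± 8.68 TPM in NCAC (SD, n = 19) and 88.03 ± 8.10 TPM in Con (SD, n = 20), with differences of 0.15 ± 0.04 from Con (adjusted p = 0.00667) and 0.12 ± 0.04 from NCAC (adjusted p = 0.0405).

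Ncoa1 has a large recovered length too, at 7328 bases. The length slope was -0.06 to 0.03 in CAC at 8 wk and -0.12 to -0.10 in Con. With GC and length trends removed the 8 wk difference was 0.17 ± 0.05 and still called, and that from NCAC over 4 weeks was 0.06 and no longer called (adjusted p = 0.139). The 8 wk call was lost without Con at 8 wk replicate 3 (adjusted p = 0.06) and with CA1, CA2-CA3 and dentate lists as covariates (0.16, adjusted p = 0.246). Of those lists, 1 of 7 CA1, 1 of 7 CA2-CA3 and 0 of 7 dentate genes were called higher in CAC against Con at 8 wk. None was called lower, and 14.5% of all genes were called. Over 4 weeks 0 of 7 CA1, 4 of 7 CA2-CA3 and 1 of 7 dentate genes were called higher, where 19.8% of all genes were called. Voom called 1 of the 7 CA2-CA3 genes over 4 weeks. The call against NCAC over 4 weeks was also lost with median-of-ratios scaling (0.09, adjusted p = 0.0715) and with voom (0.08, adjusted p = 0.0847), and in 19 of the 40 fits without a library, with adjusted p-values up to 0.0898.

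**Figure D3:**
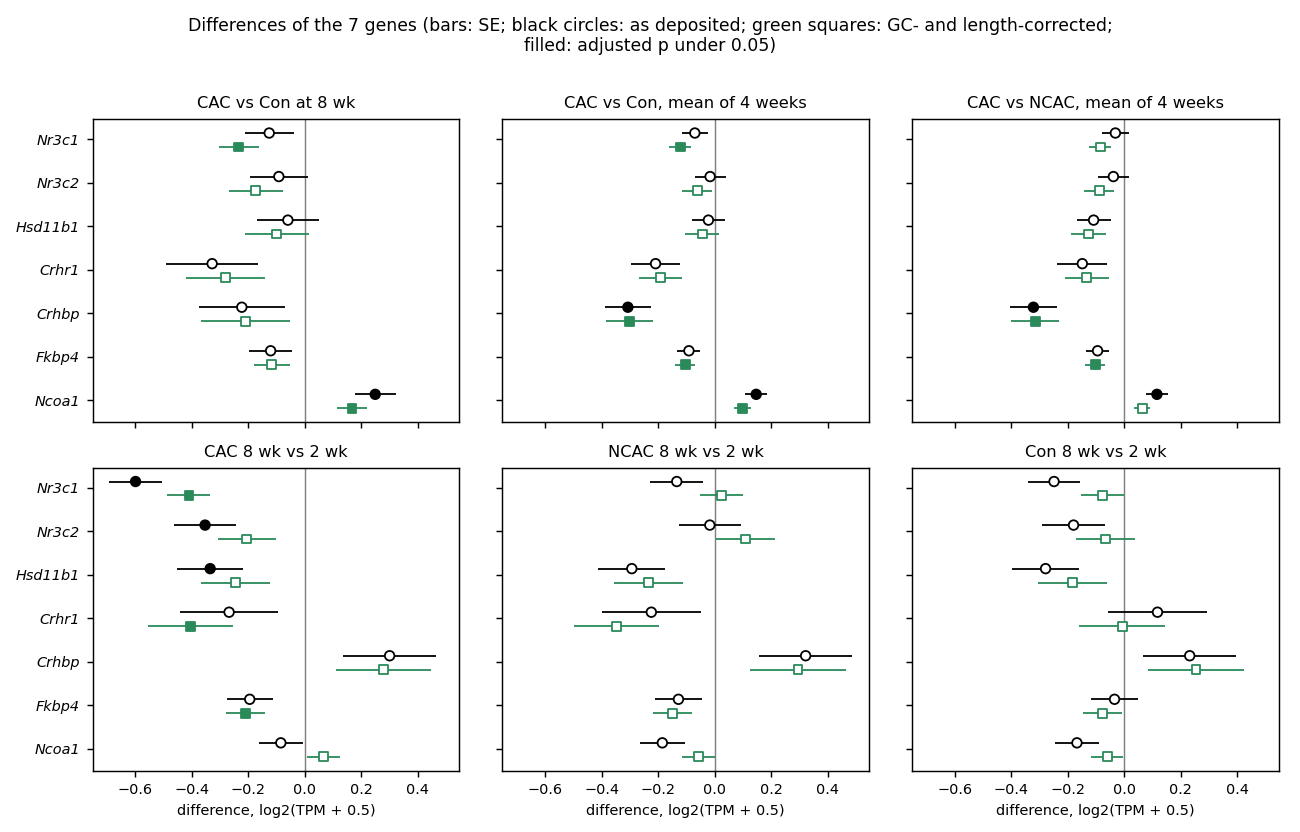
Difference of each of the 7 genes (x axis, log2 of TPM + 0.5, bars show the SE) in 6 comparisons, as deposited (black circles) and with GC and length trends removed (green squares), filled where the adjusted p was under 0.05. In CAC at 8 wk against 2 wk, Nr3c1 is filled on both scales, at -0.60 and -0.41, and in Con neither symbol of Nr3c1 is filled.

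Ncoa1 belongs to a list of receptor coregulators. Of 18 coactivators and corepressors, 6 were called higher and 0 lower at 8 wk in CAC against Con, with a median of 0.13 against 0.05 for all genes, of which 14.5% were called. Over 4 weeks 9 were called higher and 0 lower, with a median of 0.09 against 0.03 for all genes, of which 19.8% were called. Carm1, an arginine methyltransferase coactivator, rose at 8 wk to 57.05 ± 3.49 TPM in CAC (SD, n = 7), against 50.5 ± 1.83 TPM in Con (SD, n = 5), by 0.17 ± 0.05 (adjusted p = 0.0132). Nsd1, a histone methyltransferase, rose by 0.27 ± 0.08 (adjusted p = 0.0163), and Nrip1, a corepressor, by 0.27 ± 0.08 (adjusted p = 0.0203). Kat2b, an acetyltransferase, rose by 0.23 ± 0.06 over 4 weeks (adjusted p = 0.00501, and 0.0658 without the 10 striatum-rich or blood-rich libraries). With the CA1, CA2-CA3 and dentate covariates, limma called 0 of the 18 at 8 wk and 1 over 4 weeks, and voom without them called 3 at 8 wk and 7 over 4 weeks.

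Of the 15 genes that set steroid supply or access, 6 passed the filter and 1 was called, higher, at 8 wk, where 14.5% of all genes were called. Abcb1a, an efflux pump that limits entry of some corticosteroids at the blood-brain barrier, averaged 24.8 ± 3.80 TPM in CAC (SD, n = 7) and 20.2 ± 1.35 TPM in Con (SD, n = 5), a difference of 0.27 ± 0.09 (adjusted p = 0.0299, and 0.134 with GC and length trends removed). Any bearing on corticosterone in the brain was not tested. Hsd11b2, whose enzyme inactivates corticosterone, was at 0 in 32 of 60 libraries and at most 0.226 TPM in the others.

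Of 14 genes that glucocorticoids induce in many tissues, 7 were called higher and 0 lower at 8 wk in CAC against Con, with a median of 0.38 against 0.05 for all genes, of which 14.5% were called, and the count was 3 with CA1, CA2-CA3 and dentate covariates. Against NCAC at 8 wk 3 were called higher and 0 lower (1.83% of all genes), with a median of 0.39. Earlier, in CAC against Con, 0 were called higher and 1 lower at 2 wk (3.70% of all genes). At 4 wk 0 were called (0.801%), and at 6 wk 3 were called higher and 0 lower (0.250%). In NCAC against Con at 2 wk 0 were called (0% of all genes), with 7 at an unadjusted limma p under 0.05. The median there was 0.33, against 0.03 for all genes. In CAC at 8 wk against 2 wk 9 were called higher and 0 lower (31% of all genes), with a median of 0.74 against -0.06. Over the same time 1 was called higher and 1 lower in NCAC (14% of all genes), and limma called 0 in Con (9.67%), with 2 at an unadjusted p under 0.05 and 0 by voom. The direct test, the CAC difference from Con at 8 wk less that at 2 wk, called 0 of the 14 by limma (0.00641% of all genes), with 8 at an unadjusted p under 0.05 and 0 by voom, so a time course particular to CAC was not shown. Sgk1, whose promoter stretch is shown above, averaged 94.7 ± 14.8 TPM in CAC at 8 wk (SD, n = 7) and 41.7 ± 3.95 TPM in Con (SD, n = 5), a difference of 1.16 ± 0.21 (adjusted p = 0.00104). Cdkn1a, a cell-cycle inhibitor that p53 also induces, rose by 1.65 ± 0.31 (adjusted p = 0.00109), and Pdk4, a kinase that restrains glucose oxidation, by 1.00 ± 0.20 (adjusted p = 0.00142). The list holds Fkbp5, also counted with the chaperones.

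**Figure D4:**
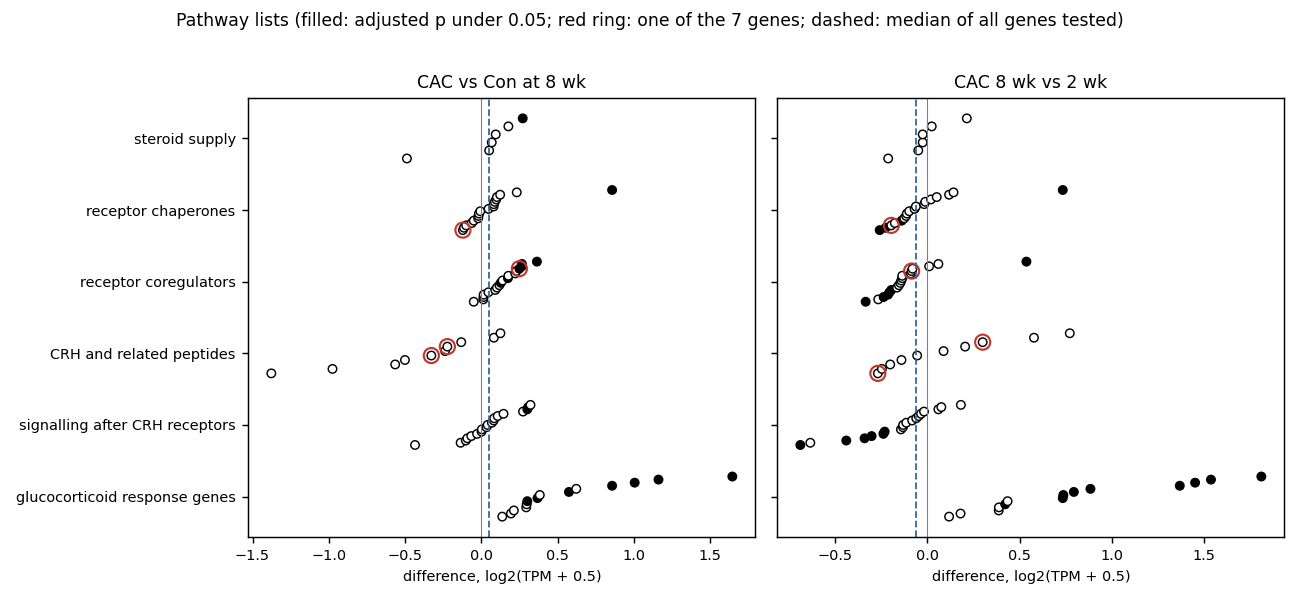
Difference of each tested gene of the 6 pathway lists (x axis, log2 of TPM + 0.5) in CAC against Con at 8 wk (left) and in CAC at 8 wk against 2 wk (right), filled where the adjusted p was under 0.05, with red rings for the 7 genes and a dashed line at the median of all genes tested. The median of the glucocorticoid response genes lies to the right of that line in both panels. Of these 14 genes, 7 are filled on the left and 9 on the right. The rings of Crhr1 and Crhbp on the left are open.

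At the other times the 7 genes gave no call between injection groups. In CAC against Con limma called 0 of 7 at 2, 4 and 6 wk, where 3.70%, 0.801% and 0.250% of all genes were called, with 1, 2 and 1 of the 7 at an unadjusted p under 0.05 and 0 by voom at each time. In CAC against NCAC it called 0 of 7 at 2, 4, 6 and 8 wk, where 0%, 0.0128%, 1.77% and 1.83% of all genes were called, with 1, 1, 1 and 2 of the 7 at an unadjusted p under 0.05 and 0, 0, 0 and 1 by voom. In NCAC against Con it called 0 of 7 and 0 of all genes (0%) at each time and over the 4 weeks, with 0 of the 7 at an unadjusted p under 0.05 and 0 by voom. The largest NCAC difference from Con in size was that of Hsd11b1 at 4 wk, 0.22 ± 0.12, at 44.3 ± 4.22 TPM in NCAC and 38.3 ± 5.71 TPM in Con (SD, n = 5 each, limma adjusted p = 0.543).

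In order of group means, the 12 groups formed a gradual series for most of the 7 genes. The ratio of the highest to the lowest group mean was 1.55 for Crhbp, 1.52 for Nr3c1, 1.30 for Hsd11b1 and for Crhr1, 1.28 for Nr3c2, 1.27 for Ncoa1 and 1.21 for Fkbp4. Nr3c1 ran down from CAC at 2 wk (56.6 TPM) to CAC at 8 wk (37.3 TPM), so that the CAC group held both ends, and the same groups were the ends for Nr3c2 (119 and 93.2 TPM). Crhbp was highest in NCAC at 8 wk (47.02 TPM), and the 4 CAC groups were its 4 lowest (30.3 to 37.2 TPM). Ncoa1 was lowest in Con at 8 wk (79.0 TPM). Neighbours in these orders differed by less than the larger of their SDs in 11 of 11 pairs for 6 of the genes and in 10 of 11 for Ncoa1, where NCAC and Con at 8 wk were further apart (85.1 and 79.0 TPM).

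Across the 60 libraries, the genes whose log2 levels were most like each of the 7 were found among 11200 tested genes with a mean of at least 5 TPM, a description in which the points share library and tissue makeup. For Nr3c1 they were Tmem229a (Pearson r = 0.91), Cpd (0.91) and Sema6d (0.90), and for Nr3c2 Epha4 (0.78), Zeb2 (0.78) and Zbtb18 (0.74). For Hsd11b1 they were Ifngr2 (0.72), Epha3 (0.71) and Tppp (0.70), and for Crhr1 Fam193b (0.75), Fam98c (0.75) and Fsd1 (0.74). Crhbp went most with Spred3 (0.69), Elfn1 (0.68) and Cort (0.66), of which Cort is the peptide gene shown above. Fkbp4 went most with Stip1 (0.88) and Ahsa1 (0.85), both co-chaperones of HSP90, and Mrps35 (0.83). For Ncoa1 they were Rapgef2 (0.94), Tmod2 (0.93) and Ash1l (0.92).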

How the data were processed

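The authors deposited a table of TPM per gene for the 60 libraries, made per the submitters' processing notes on mouse build mm10. Libraries were prepared with the TruSeq stranded mRNA kit, per the labels' protocols, and no source used here gives the aligner, the counter or its strand setting. Steps in the deposited TPM gave whole reads within 0.02 for 24227 of 24227 genes above 0, and voom on these reads was run as an alternative. Where the annotated length did not give whole reads, a length that did was searched for, so this count is no independent check. The length used equalled that of GENCODE M21 for 70.4% of genes above 0 with a single annotated entry.

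From these values, limma 3.58.1 (R 4.3.3) fitted log2(TPM + 0.5) for 15608 genes with at least 1 TPM in at least 4 libraries, with 1 mean for each of 12 groups and a trended variance, and Benjamini-Hochberg adjusted p-values over all of them. A gene was called at an adjusted p under 0.05. Differences are in log2(TPM + 0.5), with their SE, and so run small for genes of low TPM. Trends on GC content and length were natural splines with 5 df each, over 15062 genes (96.5%) matched to GENCODE M21. Libraries were rich in striatum or red cell genes where the list mean lay over 1 log2 unit above the median library. The receptor ratio was tested by exact permutation (scipy 1.17.1, Python 3.11.15). The fit was checked on simulated data. Among 123 replicate pairs, 0 held identical values.

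The 7 genes and all lists were chosen with earlier results of these data known. Named list genes are up to 3 with the smallest p among those called in CAC against Con at 8 wk and over 4 weeks, and the most similar genes leave out predicted and clone-named ones. Samples share replicate numbers across groups, but these did not pair the libraries.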

Additional observations from a re-analysis of the deposited data

Results flagged for a closer look

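In 7 of the 84 groups of values (7 genes in 12 groups), 1 library lay far from the others of its group by Dixon's criterion, and chance gives about 1 in 20 groups. Nr3c1 was 48.67 TPM in NCAC at 8 wk replicate 5, above the others at 42.85 to 44.15 TPM. Crhr1 was 17.56 TPM in Con at 4 wk replicate 4, above the others at 12.78 to 13.95 TPM. Fkbp4 was 98.06 TPM in NCAC at 2 wk replicate 4, below the others at 107.8 to 110.1 TPM.

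The other 4 values were all of Ncoa1. It was 84.38 TPM in NCAC at 2 wk replicate 3 (others 98.09 to 101.5 TPM), 95.71 TPM in NCAC at 8 wk replicate 3 (others 81.26 to 84.16 TPM), 82.57 TPM in Con at 4 wk replicate 2 (others 92.99 to 95.29 TPM) and 76.37 TPM in Con at 6 wk replicate 5 (others 95.0 to 97.33 TPM). Con at 4 wk replicate 2 was also the Con library richest in striatum genes, and the part of that tissue in its Ncoa1 value was not tested.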

How the results depend on the processing

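Under other settings, 252 counts of the 7 genes stayed within 1.5 times the reported count and 26 did not. The reported count was 0 in most comparisons, and a count of 0 that stayed 0 is among the 252. That total therefore says little about the comparisons with a call. In CAC against Con at 8 wk (1 reported) the count was 2 when only the compared groups were fitted and with GC and length trends removed, and 0 with CA1, CA2-CA3 and dentate covariates. Over 4 weeks (2 reported) it was 4 with voom and with GC and length trends removed, 1 without the 10 rich libraries (striatum or blood), and 0 with the CA and dentate covariates or with both the trends removed and those libraries left out. In CAC against NCAC at 8 wk (0 reported) it was 1 with voom, without those libraries and with the trends removed, and 2 with both. Over 4 weeks (2 reported) it was 1 with no filter, with CA and dentate covariates, without the 10 rich libraries, without the striatum-rich libraries alone and with oligodendrocyte and astrocyte covariates, and 0 with the trends removed and those libraries left out, and with voom, median-of-ratios scaling or the trends removed it was 2, with Fkbp4 gained and Ncoa1 lost. In CAC at 8 wk against 2 wk (3 reported) it was 0 with striatum and thalamus covariates and 1 with oligodendrocyte and astrocyte covariates, and it was 3 with the trends removed, but of Nr3c1, Crhr1 and Fkbp4. In NCAC at 8 wk against 2 wk (0 reported) it was 1 without the striatum-rich libraries, with or without the blood-rich ones. In Con at 8 wk against 2 wk (0 reported) it was 1 without the 10 rich libraries and 3 when only the compared groups were fitted. The cause was not tested. Leaving out the striatum-rich libraries alone, leaving out the rich libraries together with removing the trends, and the oligodendrocyte and astrocyte covariates were chosen after seeing the data.

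The replicate numbers did not pair the libraries (56 pairs, correlation -0.285 to 0.345, median -0.007, 11 over 0.1). With the replicate block the count was 0 in CAC against Con at 8 wk, where Ncoa1 was 0.24 (adjusted p = 0.0926), and 1 in CAC against NCAC over 4 weeks.

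With 1 library left out, the count ranged from 0 to 1 in CAC against Con at 4 wk and at 8 wk, from 2 to 4 over 4 weeks, from 1 to 3 in CAC against NCAC over 4 weeks, from 2 to 4 in CAC at 8 wk against 2 wk, and from 0 to 1 in NCAC and in Con at 8 wk against 2 wk.

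The sign of 3 differences turned, none of them called. Nr3c1 in NCAC at 8 wk against 2 wk was 0.024 with GC and length trends removed, with or without the rich libraries (-0.13 reported), and Crhbp in CAC at 8 wk against 2 wk was -0.23 with CA and dentate covariates (0.30 reported). Groups of 4 to 7 libraries limit what could be called, and 209 to 505 reads of Crhr1 per library make it the least precisely counted of the 7.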
